A study of Homo sapiens with 4 samples.

Results

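Lysosomal breakdown of sphingolipids was examined in MV4-11 cells through 9 genes, namely ASAH1, SMPD1, GM2A, PSAP, HEXA, GLA, GLB1, ARSA and GALC. They were picked by name, from a list of lysosomal sphingolipid enzymes and activators, out of the 23622 Ensembl identifiers in the deposited table. The pick was made with the comparison of sh-IRF1 and sh-NC cells already known, so the fold changes of the 9 genes are given as a description and no p-value is attached to them. All 9 passed the filter for testing, normalized counts of 10 or more in 2 or more libraries, and so did 14120 genes in all.

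RNA was sequenced from MV4-11, a human acute myeloid leukemia (AML) line, in 2 sh-NC and 2 sh-IRF1 libraries. The labels give all 4 libraries the genotype WT, the sh-IRF1 libraries the treatment IRF1 knockdown and the controls the treatment none, whereas the study's methods describe a control hairpin, sh-NC, for this group. Hairpins were delivered by lentivirus in the pLKO.1 vector and infected cells were selected with puromycin. IRF1, interferon regulatory factor 1, is a transcription factor induced by interferon, and the comparison asks what its knockdown changes in the transcriptome. The labels do not name the hairpin in each sh-IRF1 library, nor do they say whether replicates were separate cultures, so the spread between these libraries may be technical. The errors of fold changes below come from limma, which pools variance over all genes, so they are not the replicate spread of a single gene.

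The target sites of the hairpins that the study designed against IRF1 are shown because they define the perturbation. Each occurred once in the canonical IRF1 transcript on the minus strand of GRCh38, at chr5:132486284-132486304 in coding exon 7 of 10 for sh-IRF1#1 and at chr5:132485672-132485692 in coding exon 8 for sh-IRF1#2. Neither was found in any of the 194 annotated transcripts of the 9 genes.
sh-IRF1#1: gcaccagtgatctgtacaact
sh-IRF1#2: ggaaattacctgaggacatca

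Sphingolipids reach the lysosome with endocytosed membrane and are taken apart there stepwise, sugar by sugar and then at the ceramide core, until sphingosine and a fatty acid are left for reuse. Many of the water-soluble hydrolases cannot reach a lipid head group at the membrane surface without a small activator protein, which is supplied by the GM2 activator or by the saposins cut from prosaposin. Inherited loss of single steps causes the sphingolipidoses, among them Tay-Sachs, Fabry, Krabbe and Niemann-Pick disease, in which the undegraded lipid is stored in the lysosome, often in macrophages.

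Depth was similar across the libraries, with between 17635908 and 18695337 reads behind the normalized counts. IRF1 itself had normalized counts of 785 and 738 in the sh-NC libraries against 430 and 432 in the sh-IRF1 libraries, a log2 fold change of -0.82 ± 0.09 (SE; limma, Benjamini-Hochberg adjusted p = 1.69e-10), so the level left was 56.6% of the control. Some of the IRF1 signal could belong to its antisense neighbour IRF1-AS1 and another overlapping gene, since these overlap 22.9% of its exonic sequence. All 8 markers listed for a myelomonocytic leukemia line were detected, but 5 of them passed the test at any fold change. Among all genes tested, 20.3% were higher and 21.9% lower by that rule. MPO, PTPRC and FLT3 fell, with log2 fold changes of -1.42, -0.48 and -0.46 (limma adjusted p = 7.78e-13, 2.15e-12 and 2.75e-19), and LYZ and SPI1 rose, by 0.85 and 0.17 (adjusted p = 3.83e-20 and 6.46e-05). Whether this bears on the differences of the 9 genes was not tested. Mitochondrial genes took between 3.92% and 4.51% of each library. In bulk samples such as these, fewer cells of a type and less RNA per cell cannot be told apart.

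All 9 genes were higher in both sh-IRF1 libraries than in either sh-NC library. Of them, 6 passed an adjusted p under 0.05 together with a log2 fold change beyond 0.5 (both limits, in what follows) and 0 were lower, where 8.27% of the 14120 genes tested were higher and 7.56% lower by the same rule. At any fold change 8 were higher, against 20.3% of all genes, and 0 lower, against 21.9%. The groups did not overlap for any of the 9, and among all genes they did not overlap for 34.2% that were higher and 35.0% that were lower. Because the genes were picked on this contrast, nothing is read from these counts. Their median log2 fold change was 0.58, and that of all genes tested was -0.0019. For a single gene, the smallest p of an exact permutation test (two-sided) is 0.33 in this design, so calls lean on the variance that limma pools over all genes.

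**Figure D1:**
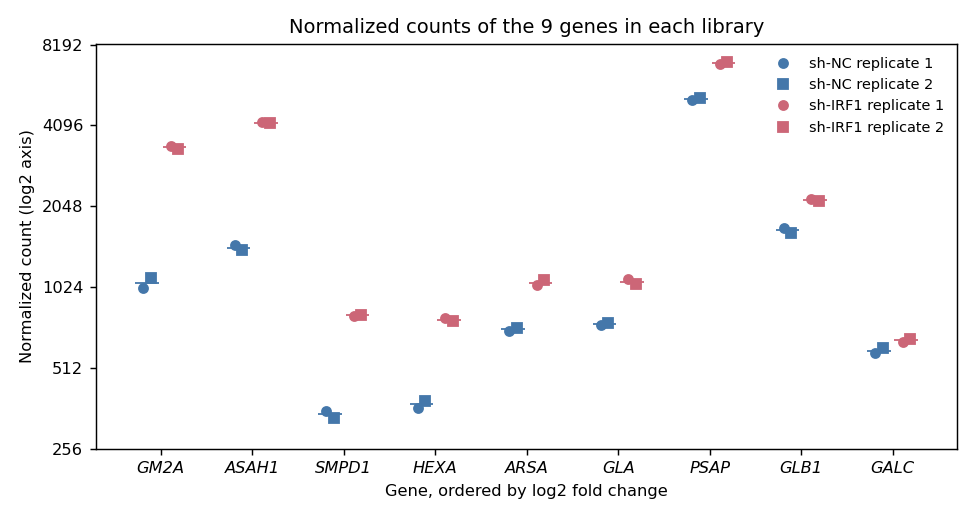
Normalized counts (log2 axis) of the 9 genes in each of the 4 libraries, with bars at the mean of each group. Replicates nearly coincide for every gene, the sh-IRF1 points lie above the sh-NC points throughout, and the gap narrows from GM2A and ASAH1 on the left to GALC on the right.

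The enzymes of the ceramide core stood among the largest differences. ASAH1 (ENSG00000104763, chr8:18055992-18084998 in GRCh38, 14 exons in the canonical transcript) encodes acid ceramidase, which splits ceramide into sphingosine and a fatty acid. Its normalized counts were 1467 and 1403 in the sh-NC libraries and 4204 and 4170 in the sh-IRF1 libraries. The sh-IRF1 libraries were thus 2.92 times the control on average, with a log2 fold change of 1.54 ± 0.05 (SE, n = 2 per group, 95% confidence interval 1.45 to 1.64). SMPD1 (ENSG00000166311, chr11:6390440-6394998, 6 exons) encodes acid sphingomyelinase, which releases ceramide from sphingomyelin and so feeds the ceramidase step. It was counted at 355 and 333 in the controls and at 803 and 807 after knockdown. Its 2.34-fold difference, a log2 value of 1.23 ± 0.09 (interval 1.04 to 1.41), was smaller than that of ASAH1, and the intervals of both genes did not overlap. The ratio of ASAH1 to SMPD1 counts, which carries the length of both transcripts and is compared only between libraries, went from 4.13 and 4.22 in the controls to 5.24 and 5.17 in the sh-IRF1 libraries.

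Among the genes that act on ganglioside GM2, the activator differed more than the enzyme subunit. GM2A (ENSG00000196743, chr5:151212150-151270440, 4 exons) encodes the GM2 activator, which lifts the ganglioside out of the membrane and presents it to beta-hexosaminidase A. The sh-NC libraries held 1012 and 1105 normalized counts and the sh-IRF1 libraries 3435 and 3360. This was the largest fold change of the 9, at 3.21-fold and a log2 value of 1.68 ± 0.05 (interval 1.57 to 1.79), and only 1.01% of all genes tested had a larger one. HEXA (ENSG00000213614, chr15:72340924-72376420, 14 exons) encodes the alpha subunit of beta-hexosaminidase A, which removes the terminal sugar of GM2. Here 364 and 387 in the controls stood against 788 and 763 in the knockdown, a 2.06-fold difference and a log2 value of 1.04 ± 0.09 (interval 0.86 to 1.23). Other genes overlap 16.7% of the exonic sequence of HEXA, and since the sources used here do not state whether strand was used in counting, part of its counts is uncertain. The count ratio of GM2A to HEXA was 2.78 and 2.85 in the controls and 4.36 and 4.41 in the sh-IRF1 libraries.

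GLB1 (ENSG00000170266, chr3:32996609-33097202, 16 exons) encodes the lysosomal beta-galactosidase that converts ganglioside GM1 to GM2, the step before the hexosaminidase. Its counts were 1702 and 1635 in the controls and 2176 and 2133 after knockdown. The difference was modest, 1.29-fold and a log2 value of 0.37 ± 0.05 (interval 0.26 to 0.47), and other genes overlap 14.0% of its exonic sequence. GLB1 was thus above the spread of its replicates but below the fold limit of 0.5.

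PSAP (ENSG00000197746, chr10:71816298-71851251, 14 exons) encodes prosaposin, the precursor of saposins A to D. The saposins assist beta-galactosylceramidase, arylsulfatase A, alpha-galactosidase A and acid ceramidase, so that several of the other 8 genes depend on its products. It had the highest level per kilobase of the 9 in both groups, with 5077 and 5201 normalized counts in the controls and 6956 and 7068 in the sh-IRF1 libraries. On the log2 scale it was higher by 0.45 ± 0.03 (interval 0.38 to 0.52), a 1.36-fold difference. As other genes differed more, the part of PSAP in the summed count of the 9 went from 42.3% and 42.8% in the controls to 32.9% and 33.5%.

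The enzymes of galactose-bearing sphingolipids differed less than those of the ceramide core. ARSA (ENSG00000100299, chr22:50622754-50628173, 8 exons) encodes arylsulfatase A, which removes sulfate from sulfatide. It was counted at 703 and 723 in the controls and at 1041 and 1084 after knockdown, a log2 fold change of 0.58 ± 0.07 (interval 0.43 to 0.72). GALC (ENSG00000054983, chr14:87837820-87993665, 17 exons) encodes beta-galactosylceramidase, which acts next on the galactosylceramide that arylsulfatase A leaves. Its 583 and 606 in the controls lay just under 642 and 656 in the sh-IRF1 libraries, and the log2 fold change of 0.13 ± 0.09 had an interval that spanned 0, from -0.05 to 0.30. GALC was the gene of the 9 that did not pass at any fold change. The RNA fold changes of ARSA and GALC, whose enzymes act in turn on sulfatide, differed in size, and their intervals did not overlap. No test between the genes was run, and the activity of the steps was not measured.

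GLA (ENSG00000102393, chrX:101393273-101408012, 7 exons) encodes alpha-galactosidase A, which removes the terminal galactose of globotriaosylceramide. The controls held 739 and 752 normalized counts and the sh-IRF1 libraries 1093 and 1054, a 1.44-fold difference with a log2 value of 0.53 ± 0.07 (interval 0.38 to 0.67). Another gene, RPL36A, overlaps 8.99% of the exonic sequence of GLA. GLA lay close to the fold limit, and without sh-IRF1 replicate 1 its log2 fold change came just under 0.5, which left 5 of the 9 genes past the limit.

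Ordered by size, the 9 fold changes fell into 4 genes with a log2 value above 1 and 5 below 0.6. Confidence intervals overlapped between neighbours within each set, except between ASAH1 and SMPD1, and they did not overlap between HEXA and ARSA, where the sets met. This is a description, as no test between genes was run and the spread behind the intervals may be technical. The share of all tested genes with a larger fold change ran from 1.01% for GM2A to 3.45% for HEXA in the upper set, and from 10.8% for ARSA to 36.9% for GALC in the lower. Summed over the 9 genes, the normalized count was 12073 ± 102 in sh-NC and 21116 ± 30.1 in sh-IRF1 cells (SD, n = 2 each), 1.75 times the control. ASAH1 and GM2A made up 56.3% of this difference, and with PSAP 77.0%.

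**Figure D2:**
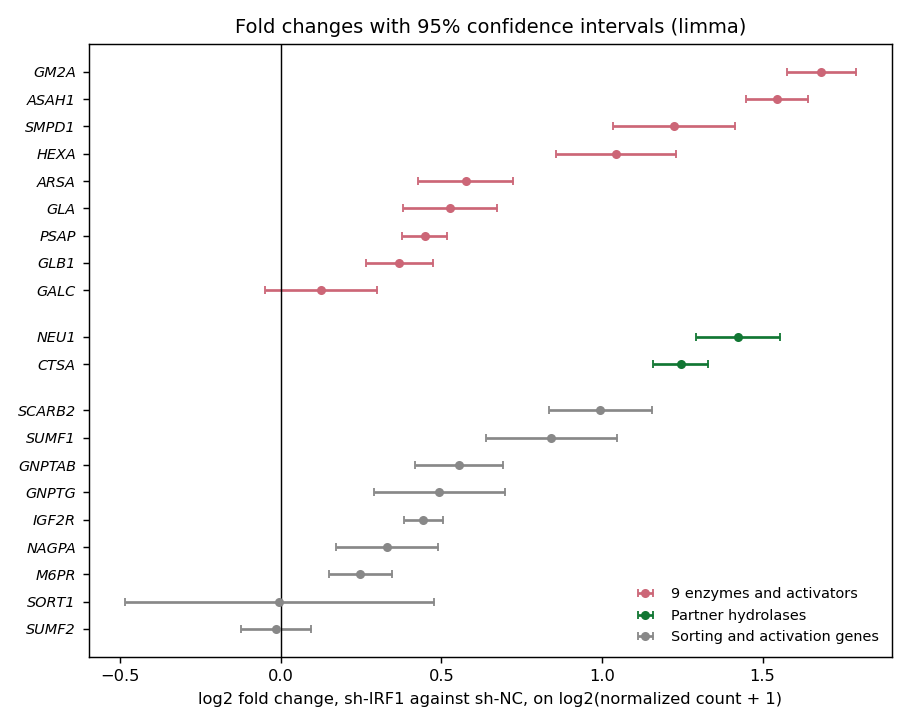
Log2 fold changes (sh-IRF1 against sh-NC, on log2(normalized count + 1)) with 95% confidence intervals from limma for the 9 genes, the partner hydrolases NEU1 and CTSA and 9 sorting and activation genes. GM2A, ASAH1, SMPD1, HEXA, NEU1 and CTSA lie above 1, and the interval of GALC crosses 0.

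Levels of different genes were ranked only per length, as normalized count per kilobase. Summed counts, and the shares of single genes in them, are not divided by length here. Longer transcripts therefore weigh more in those sums and shares. With the length of the canonical transcript, PSAP came first in sh-NC cells at 1870 ± 32.1 (SD, n = 2), followed by GLB1 at 661 ± 18.7, GLA at 565 ± 7.12 and ASAH1 at 516 ± 16.2. HEXA was lowest at 78.5 ± 3.41. In the sh-IRF1 libraries ASAH1 stood next after PSAP, at 1507 ± 8.44, and GM2A, at 943 ± 14.7, had passed GLB1 and GLA. ARSA, GALC and SMPD1 lay close together in the controls, at 166 ± 3.36, 157 ± 4.35 and 143 ± 6.50, and GALC and HEXA in the sh-IRF1 libraries, at 171 ± 2.66 and 162 ± 3.71. These close neighbours kept their order in both libraries of the group but are separated by little more than their spread.

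The order depended on the length used. Divided by the union of all annotated exons instead, which is far longer for ASAH1, HEXA and GLA, ASAH1 was 93.3 ± 2.94 in the controls and ranked 7, and GLA was 120 ± 1.52 and ranked 6. PSAP ranked 1 and HEXA 9 with either length in both groups. The union of exons counts rarely used sequence in full, and which transcripts these cells use was not measured.

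**Figure D3:**
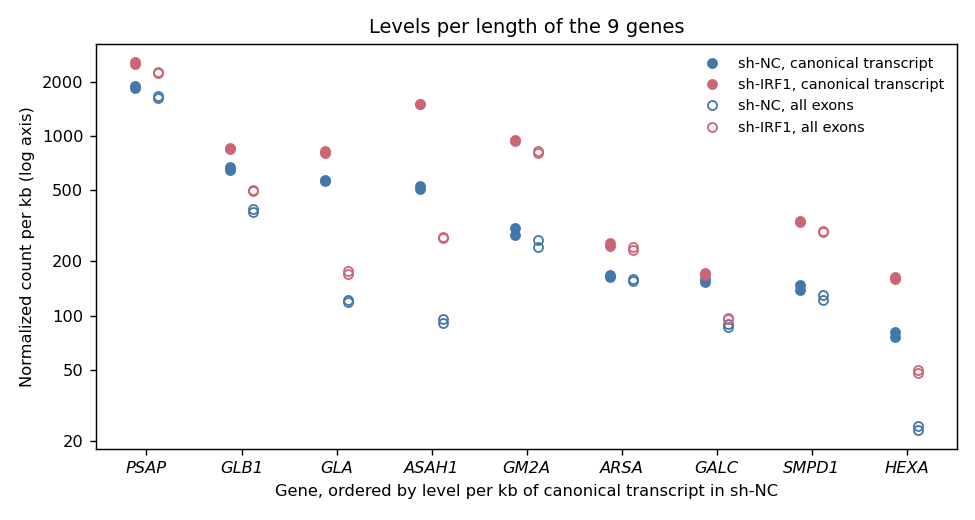
Normalized counts per kilobase (log axis) of the 9 genes in each library, with filled points for the canonical transcript length and open points for the union of all exons. The choice of length moves ASAH1, GLA and HEXA most, while PSAP stays highest and HEXA lowest.

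Enzymes that work in the same steps were compared next. Of 6 partner hydrolases, NEU4 was near 0 and 5 were tested, with a median log2 fold change of 0.47. Past both limits 2 were higher, beside 8.27% of all genes tested. At any fold change 4 were higher and 1 was lower, beside 20.3% and 21.9% of all genes. The lists here and below were written with earlier results of these data known, so nothing is read from their counts. NEU1, the lysosomal sialidase, rose from 703 and 696 to 1923 and 1831 (log2 fold change 1.42 ± 0.07, adjusted p = 3.01e-23 by limma). CTSA, cathepsin A, which protects NEU1 and GLB1 in a shared complex, rose from 2087 and 2060 to 4895 and 4941 (1.25 ± 0.04, adjusted p = 3.17e-28), though other genes overlap 21.5% of its exonic sequence. The 3 members of this complex thus differed unequally, and the count ratio of CTSA to GLB1 went from 1.23 and 1.26 to 2.25 and 2.32. Without sh-IRF1 replicate 2, 0 partner hydrolases were lower at any fold change.

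A further list held genes that carry these enzymes to the lysosome or activate them. Of 9 sorting and activation genes, 3 rose past both limits and 7 at any fold change, 0 fell, and the median log2 fold change was 0.44. Among all genes tested, 8.27% rose and 7.56% fell past both limits. At any fold change 20.3% of all genes rose and 21.9% fell. Nothing is read from the counts of this list. SCARB2, a lysosomal membrane protein that serves as a sorting receptor, rose by 0.99 ± 0.08 (adjusted p = 1.08e-14 by limma), from 570 and 518 to 1075 and 1092. SUMF1, which makes the formylglycine that arylsulfatase A and other sulfatases need, rose by 0.84 ± 0.10 (adjusted p = 1.64e-09). GNPTAB, a subunit of the phosphotransferase that starts the mannose 6-phosphate tag, rose by 0.55 ± 0.07 (adjusted p = 2.14e-09), and IGF2R, a receptor for that tag, by 0.44 ± 0.03 (adjusted p = 4.47e-17). The number past both limits was 2 without sh-IRF1 replicate 2.

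Among 29 tested lysosomal hydrolases of other substrates, 8 rose past both limits and 0 fell, beside 8.27% and 7.56% of all genes. At any fold change 22 rose and 2 fell, beside 20.3% and 21.9% of all genes. The median log2 fold change of the list was 0.26. CTSD, the aspartic protease cathepsin D, rose by 1.39 ± 0.04 (adjusted p = 6.52e-32 by limma), with other genes overlapping 48.0% of its exonic sequence. Further genes past both limits included TPP1, PLBD2, ARSB, IDS, GUSB and FUCA1, and for IDS the overlap with other genes is 75.9%. CTSS, cathepsin S, fell by 0.28 ± 0.06 (adjusted p = 0.00018).

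Of 11 tested genes of sphingolipid breakdown outside the lysosome, 2 rose and 1 fell past both limits, and 8 did not pass at any fold change, with a median log2 fold change of 0.04. The 2 that rose were 18.2% of the list by either rule, beside 8.27% of all genes past both limits and 20.3% at any fold change. Among all genes, 7.56% fell past both limits. SPHK2 and GBA2, a sphingosine kinase and the non-lysosomal glucosylceramidase, rose by 0.60 ± 0.06 (adjusted p = 6.48e-12) and 0.58 ± 0.09 (adjusted p = 2.75e-07, both by limma). SPHK1, the other sphingosine kinase, fell by 1.00 ± 0.13 on the log2 scale, from 406 and 352 to 192 and 185 (adjusted p = 1.58e-08). Without sh-IRF1 replicate 2, only 1 gene of this list rose past both limits.

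Of 21 tested sphingolipid synthesis genes, 2 rose and 2 fell past both limits, 6 rose and 5 fell at any fold change, and the median was -0.06. Those that rose were 9.52% of the list past both limits and 28.6% at any fold change, beside 8.27% and 20.3% of all genes. Among all genes, 7.56% fell past both limits and 21.9% at any fold change. Nothing is read from these counts. CERT1, which carries ceramide to the Golgi for sphingomyelin synthesis, fell by 0.59 ± 0.08 (adjusted p = 3.87e-08 by limma), from 880 and 883 to 581 and 592. ST3GAL5, the synthase of ganglioside GM3, fell by 0.92 ± 0.29 (adjusted p = 0.00899). B4GALNT1, the synthase of GM2, rose from 3.08 and 4.11 to 24.9 and 22.5, so its log2 fold change of 2.43 ± 0.66 rests on few reads (adjusted p = 0.00235), and B3GALT4 rose by 0.68 ± 0.18 (adjusted p = 0.00164). B4GALT5, a lactosylceramide synthase, had the smallest p among genes that rose, at 0.49 ± 0.05 (adjusted p = 1.09e-11). The counts were unstable, as 0 genes rose past both limits without sh-IRF1 replicate 1 and 1 without sh-IRF1 replicate 2, 3 rose at any fold change without sh-IRF1 replicate 1, and 1 fell past both limits without sh-NC replicate 2 or without sh-IRF1 replicate 1.

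The TFEB family, transcription factors known for switching on lysosomal genes, did not change in one direction. TFE3 rose by 0.40 ± 0.07 (adjusted p = 3.34e-06 by limma), from 956 and 912 to 1198 and 1264, and TFEC by 0.44 ± 0.08 (adjusted p = 1.34e-05). TFEB fell by 0.28 ± 0.09 (adjusted p = 0.00938), from 648 and 612 to 523 and 512. The TFEB call was lost without sh-NC replicate 1 and without sh-IRF1 replicate 2. MITF fell from 53.3 and 54.4 to 29.8 and 31.9 (log2 fold change -0.79 ± 0.32, adjusted p = 0.0452), a call that was lost when any single library was left out, and the number of these factors lower at any fold change then lay between 0 and 1.

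Markers of monocyte and macrophage maturation also moved, in both directions. Of 14 listed, 8 were tested, and 3 rose and 2 fell past both limits, beside 8.27% and 7.56% of all genes. The summed normalized count of the tested markers was between 4625 and 4779 in sh-NC and between 5981 and 5991 in sh-IRF1 libraries. LYZ carried this rise in the sum, as the other 7 summed to 2801 and 2994 in the controls and to 2706 and 2772 after knockdown. LYZ rose by 0.85 ± 0.05 (adjusted p = 3.83e-20 by limma) with other genes overlapping 34.7% of its exonic sequence, ITGAX by 1.08 ± 0.10 (adjusted p = 1.10e-12) and ITGAM by 0.64 ± 0.17 (adjusted p = 0.0019). FCGR1A fell by 0.57 ± 0.07 (adjusted p = 1.84e-09), and CD14, the classical monocyte marker, fell from 38.0 and 42.1 to 10.9 and 1.87 (adjusted p = 8.90e-05). The number lower at any fold change was 4, and 2 without sh-NC replicate 2 or without either sh-IRF1 library. CD79A, a B cell marker, rose from 50.3 and 43.1 in the controls to 190 and 250 after knockdown (adjusted p = 4.46e-12 by limma). T cell, erythroid and epithelial markers were not listed in the table, and COL1A1 of the fibroblast markers was near 0. The part of these markers in the differences of the 9 genes was not tested.

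Sequence around the transcription start was examined for what the 9 genes share that the pick did not use. RefSeq start-site windows of GRCh38.p14, from 250 bases before to 50 after the start, were at hand for 5 of the 9, namely SMPD1, GM2A, GLA, GLB1 and GALC, the last with 4 windows. The GLB1 window belongs to a start 324 bases downstream of the canonical one. None of these held CACGTG, the core of the element bound by the TFEB family, which occurred in 7.26% of 35116 windows, nor the longer forms TCACGTG and TCACGTGA, which contain it and occurred in 3.71% and 0.98%. The interferon regulatory factor repeat, GAAA, 2 bases, GAAA, was also found in 0 of the 5, against 3.57% of all windows. Both strands were searched, and an absent match says only that these letters are not in the window. A gene is counted if any of its windows matched, whereas the shares are of single windows, so the units differ. The GC box GGGCGG was in all 5, against 45.0% of all windows, and the CCAAT box, searched as ATTGG, in 2 of the 5, against 34.6%. Both of these motifs were added after the data were seen. The GC box is not particular to the 9 genes. Among genes with a window, 20 of 21 other lysosomal hydrolases, 8 of 9 sorting and activation genes and 2 of 3 partner hydrolases also held it. GC content was 74.0% for SMPD1, 60.3% for GM2A and 48.0% for GLA, with a median of 58.7% over all windows.

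The windows of GM2A, SMPD1 and GLA are shown because they start at the canonical transcript start and belong to genes with a large (GM2A, SMPD1) and a smaller (GLA) fold change. Capitals mark GGGCGG or its reverse complement CCGCCC, found in 3, 7 and 2 places. They lie at chr5:151252935-151253234 on the plus strand, chr11:6390224-6390523 on the plus strand and chrX:101407876-101408175 on the minus strand, in that order.
GM2A: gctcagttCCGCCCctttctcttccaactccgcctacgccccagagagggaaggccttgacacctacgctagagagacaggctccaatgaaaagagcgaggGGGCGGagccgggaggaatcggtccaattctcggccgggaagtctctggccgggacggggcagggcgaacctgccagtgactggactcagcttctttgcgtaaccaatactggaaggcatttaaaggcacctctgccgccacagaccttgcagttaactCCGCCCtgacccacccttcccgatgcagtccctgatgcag
SMPD1: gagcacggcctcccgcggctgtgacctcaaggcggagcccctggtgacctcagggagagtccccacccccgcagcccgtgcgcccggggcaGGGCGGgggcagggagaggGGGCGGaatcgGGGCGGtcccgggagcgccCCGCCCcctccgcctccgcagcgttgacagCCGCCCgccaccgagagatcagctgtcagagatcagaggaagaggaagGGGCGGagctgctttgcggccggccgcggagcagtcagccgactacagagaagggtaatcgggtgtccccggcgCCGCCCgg
GLA: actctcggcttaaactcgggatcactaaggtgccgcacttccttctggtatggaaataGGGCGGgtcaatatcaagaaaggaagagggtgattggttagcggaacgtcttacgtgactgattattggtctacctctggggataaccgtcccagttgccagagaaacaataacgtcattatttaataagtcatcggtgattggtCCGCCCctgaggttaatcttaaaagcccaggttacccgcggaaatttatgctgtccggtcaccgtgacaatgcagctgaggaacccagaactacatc

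CACGTG was present in windows of other lysosomal genes. It was found for 2 of the 3 partner hydrolases with a window, CTSA and NEU1, for 5 of 9 sorting and activation genes and for 5 of 21 other lysosomal hydrolases with a window. Here too a gene is counted if any of its windows matched. With CACGTG in only 7.26% of all windows, its absence from 5 genes is not read as a trait of the 9. No window was at hand for ASAH1, PSAP, HEXA and ARSA. Stretches of the CTSA window (chr20:45891283-45891326, plus strand) and the NEU1 window (chr6:31862923-31862966, minus strand) are shown as examples of a match. Capitals mark TCACGTG, or TCACGTGA where it is complete. A match describes letters and no binding was measured in these libraries.
CTSA: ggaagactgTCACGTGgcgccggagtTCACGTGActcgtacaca
NEU1: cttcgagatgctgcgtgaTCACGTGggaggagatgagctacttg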

How the data were processed

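RNA of 2 sh-NC and 2 sh-IRF1 MV4-11 libraries was analysed from 1 table with 23622 identifiers. The values deposited by the authors are a signal, gene counts divided by 1 size factor per library, called normalized counts here. All values were whole multiples of 1 step per library, to within 4.4e-05 of a read, but no count test was run on them. The table holds 0 columns of values with no sample. HISAT2 2.0.5 and hg38 come from the submitters' processing notes, while the counting tool and the use of strand are not given in the sources used here. According to the study's methods, the authors used FPKM for quantification and DESeq2 for their own comparison, which are not used here.

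log2(value + 1) was fitted with limma 3.58.1 (R 4.3.3, trend and robust shrinkage) over the 14120 genes that reached 10 in 2 or more libraries, with Benjamini-Hochberg adjustment over all of them. Calls needed an adjusted p under 0.05, with or without a log2 fold change beyond 0.5. The fit was tested on simulated data. The scale understates changes of genes with few reads. Symbols matched 23456 identifiers, and positions and lengths came from GENCODE 44. The 9 genes and all lists were chosen with earlier results of these data known. Within each list, the genes past both limits, up to 8, and the smallest p in each direction were named, and every partner hydrolase and TFEB family factor, except some genes that are not reported here by name. Alternatives covered scaling, filter, pseudocount, robust setting, fold limit, transcript length, a replicate block and leaving out each library. Protein features were not computed.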

Additional observations from a re-analysis of the deposited data

How the results depend on the processing

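All 9 genes had the same direction under every alternative run, and their median log2 fold change lay between 0.55 and 0.62. Past both limits 6 were higher under each scaling, filter, pseudocount and model setting, between 5 and 6 with 1 library left out, and 4 with a log2 limit of 1. Total-count scaling moved the median of all genes to 0.04 and raised the 9 fold changes alongside, so that GALC came to 0.17. The planned edgeR and DESeq2 tests were not run on these normalized values.

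With a log2 limit of 1, 389 genes were higher and 318 lower. Of the lists, sorting and activation genes then held 0 higher, non-lysosomal breakdown 0 higher, synthesis 1 higher and 0 lower, other lysosomal hydrolases 3 higher, TFEB family factors 0 lower, and maturation markers 1 higher and 1 lower. Total-count scaling gave 5 non-lysosomal genes higher at any fold change. Under that scaling, with no filter and with no robust setting, 0 TFEB family factors were lower past both limits and 1 at any fold change. A filter at 50 left 1 synthesis gene higher and 1 maturation marker lower, as fewer genes were tested. The cause was not tested for the others.

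Leaving out 1 library gave between 0 and 1 partner hydrolases lower at any fold change, between 1 and 2 non-lysosomal genes higher, between 0 and 2 synthesis genes higher, between 3 and 6 higher at any fold change and between 1 and 2 lower, between 0 and 1 TFEB family factors higher, 0 lower past both limits and between 0 and 1 lower at any fold change, and between 2 and 3 maturation markers lower at any fold change.

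The replicate numbers did not pair the libraries (correlation of same-numbered deviations -0.015 over 14120 genes). With the replicate block, 1174 genes were higher and 1066 lower, 6 of the 9 genes passed both limits, and 0 TFEB family factors were lower past both limits and 1 at any fold change, with 8 of the 9 genes higher at any fold change.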
